A study of Mus musculus with 32 samples.

Results

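Transcripts of 9 digestive enzyme genes of the pancreatic acinar cell were followed through liver RNA-seq libraries of mice: the serine proteases Prss2, Ctrb1, Cela2a and Cela3b, the carboxypeptidase Cpa1, the lipid-digesting proteins Pnlip, Clps and Cel, and the amylase Amy2a5. These 9 genes, of 35523 genes summed from the transcript tables, were chosen by their raw estimated read counts, which had already been seen to be high in some of these libraries, so all of their own values are given as a description with no test. The 32 libraries came from 32 livers, 4 for each of 8 groups. Nudt7-/- (KO) and wildtype (WT) mice, female (F) or male (M), were fed a Western diet (WD, with fat at 41% of its kcal and cholesterol at 0.2%) or a low-fat control diet (CD, with fat at 10% of its kcal and cholesterol at 0%), which gives the groups KOF-WD, KOF-CD, WTF-WD, WTF-CD, KOM-WD, KOM-CD, WTM-WD and WTM-CD. A library is named here by its group and replicate number, as in KOF-CD 3.

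All mice were C57BL/6J. Diets started at 6 weeks of age and ended when tissue was taken at 17 to 20 weeks. The knockout was whole-body: genome editing in FVB zygotes deleted exons 3 and 4 of Nudt7, a peroxisomal CoA hydrolase, and the line descends from 1 mosaic founder that was backcrossed to C57BL/6J, with wildtype littermates as controls. The study took tissue in the fed state or after a fast of 24 h, and the labels do not say which of these applies to a given liver. The labels name the tissue as liver, and the hepatocyte genes Alb, Apoa1, Ttr, Trf, Cps1, Ass1, Fgb and Hnf4a summed to between 59274 and 117732 CPM (counts scaled to the library total) in the 32 libraries. Library totals ran between 10140048 and 15825078 estimated counts. Nudt7 itself was lower in all 4 KO libraries than in all 4 WT libraries of the same sex and diet, with a median of 50.8 CPM over 16 KO livers and 284.0 CPM over 16 WT livers. The Y-linked gene Ddx3y had at most 0.248 CPM in the 16 female libraries and at least 47.9 CPM in the 16 male libraries.

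The acinar cell makes up most of the exocrine pancreas and devotes most of its messenger RNA to secreted digestive enzymes. Proteases leave the cell as inactive zymogens (trypsinogens, chymotrypsinogens, proelastases, procarboxypeptidases) and are activated in the gut, while amylase, pancreatic lipase and carboxyl ester lipase are secreted in active form and colipase anchors the lipase to fat droplets. Their genes are switched on together by the PTF1 complex, in which Ptf1a and Rbpjl take part, and a hepatocyte is not known for making them at comparable levels. In a bulk liver library, fewer acinar cells and less acinar RNA per cell cannot be told apart.

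The promoters of the members are shown as background on the PTF1 complex. Their part in the counts of these libraries was not tested. RefSeq (build GRCm38.p6) gave a window of 300 bases, from 250 before to 50 after the start, for 8 of the 9 members, with none for Clps. The windows were searched on both strands for CACCTG and TTTCCC, which stand in the known composite site of PTF1 (E-box and TC-box) and do not overlap each other. CACCTG was found in 4 windows (Prss2, Cela2a, Cela3b and Cel) and in 20.2% of all 32851 promoters of that length. TTTCCC was found in 6 windows (Prss2, Cela2a, Cpa1, Ctrb1, Amy2a5 and Cel) and in 25.2% of all promoters. The 3 windows that held both are printed 5′ to 3′ in the direction of the gene, with each match to either run in capitals (as CACCTG or CAGGTG, and as TTTCCC or GGGAAA). Both runs stood together in 4.86% of all promoters. The windows lie at chr6:41521526-41521825 on the plus strand for Prss2, chr4:141825956-141826255 on the minus strand for Cela2a and chr2:28563354-28563653 on the minus strand for Cel.
Prss2: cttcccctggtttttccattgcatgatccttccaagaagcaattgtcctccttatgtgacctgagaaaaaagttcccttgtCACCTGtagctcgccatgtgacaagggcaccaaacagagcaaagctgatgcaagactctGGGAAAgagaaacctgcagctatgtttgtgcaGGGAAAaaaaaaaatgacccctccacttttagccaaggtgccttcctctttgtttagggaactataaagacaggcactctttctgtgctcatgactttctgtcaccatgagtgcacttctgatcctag
Cela2a: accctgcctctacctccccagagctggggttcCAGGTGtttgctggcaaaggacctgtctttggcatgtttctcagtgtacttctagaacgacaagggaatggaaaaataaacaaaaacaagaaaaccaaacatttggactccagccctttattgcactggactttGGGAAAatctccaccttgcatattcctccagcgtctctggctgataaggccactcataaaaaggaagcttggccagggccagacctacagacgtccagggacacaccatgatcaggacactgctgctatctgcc
Cel: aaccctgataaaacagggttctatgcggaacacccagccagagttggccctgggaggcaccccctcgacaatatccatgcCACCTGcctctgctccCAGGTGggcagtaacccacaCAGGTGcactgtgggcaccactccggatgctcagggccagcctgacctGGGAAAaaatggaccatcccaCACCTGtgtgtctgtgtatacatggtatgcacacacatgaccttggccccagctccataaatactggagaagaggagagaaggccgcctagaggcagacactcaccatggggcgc
Counted from the start, the CACCTG match of Prss2 begins at -169 and its GGGAAA matches at -110 and -78. In Cela2a CAGGTG begins at -218 and GGGAAA at -84. Cel has 4 matches to CACCTG on either strand, at -170, -154, -134 and -65, and 1 GGGAAA at -86. These matches are letters in a window and were read from the genome, not from these libraries.

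The first question was which libraries hold the member transcripts. The summed counts of the 9 members spanned 2 to 52988 per library, with a median of 13.1. A library was counted as holding the members where at least 5 of the 9 had at least 10 counts, and 10 of the 32 libraries did. They were KOF-WD 4, KOF-CD 2, KOF-CD 3, WTF-WD 4, all 4 WTF-CD libraries, WTM-WD 1 and WTM-WD 4. Of the 9 members, 5 reached 10 counts in the library just inside that rule, KOF-WD 4, and 4 in the library just outside it, WTM-WD 2.

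In KOF-WD livers the member sum was 5, 12, 8 and 180.0 counts, and in KOF-CD livers 39.9, 1063, 35562 and 13 counts (replicates 1 to 4). WTF-WD livers had 2, 9, 7 and 5423 counts, and WTF-CD livers 573, 52988, 497 and 15214 counts. The female groups therefore hold both nearly empty libraries and the fullest ones, and the WTF-CD libraries lie apart from the 2 to 9 counts of the first 3 WTF-WD libraries. KOM-WD livers had 13, 13.0, 14.3 and 37.5 counts and KOM-CD livers 3.00, 11, 4 and 2 counts. WTM-WD livers had 347, 71, 8.02 and 167 counts, and WTM-CD livers 5.00, 13.1, 69.7 and 10.0 counts. Among males the largest sum, in WTM-WD 1, was below that of 7 female libraries.

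**Figure D1:**
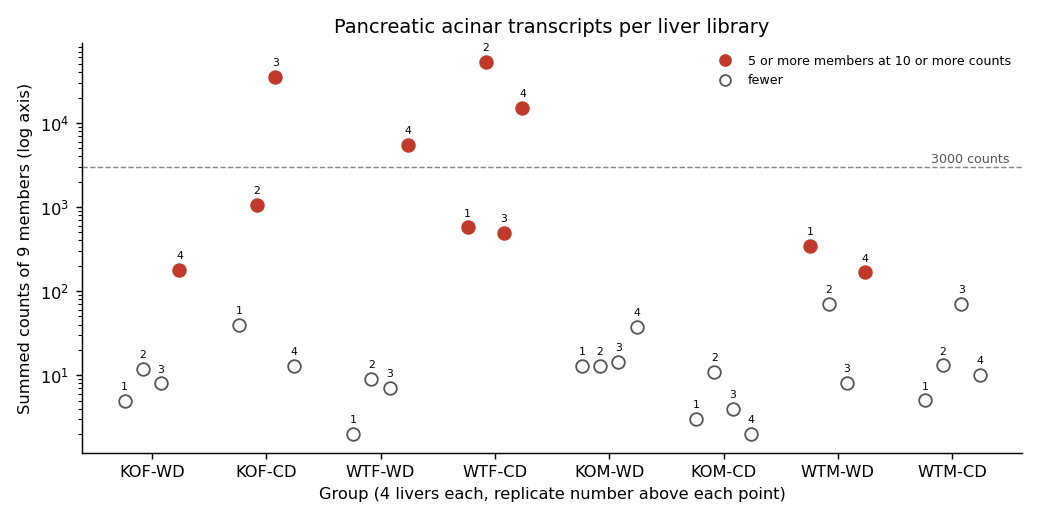
Summed counts of the 9 members in each of the 32 libraries on a log axis, by group, with the replicate number above each point. Filled points are the 10 libraries in which at least 5 members reached 10 counts, and 4 of these, all from females, lie above the dashed line at 3000 counts.

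The 4 libraries above 3000 counts were KOF-CD 3, WTF-WD 4, WTF-CD 2 and WTF-CD 4, and this threshold was chosen after the sums were seen. The smallest of them held 5423 counts, in WTF-WD 4, and the next library below held 1063, in KOF-CD 2. The 9 members made up 0.236% of all counts in KOF-CD 3, 0.0369% in WTF-WD 4, 0.479% in WTF-CD 2 and 0.105% in WTF-CD 4. With the 32 other acinar genes of the files added, these shares were 0.722%, 0.0999%, 1.28% and 0.296% in the same order of libraries. The hepatocyte sums overlapped, at 92665 to 117732 CPM in these 4 libraries and 59274 to 112564 CPM in the 22 that did not hold the members.

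Holding libraries were unevenly spread over the factors of the design. By sex they were 8 of 16 female and 2 of 16 male libraries. By genotype they were 3 of 16 KO and 7 of 16 WT libraries, and by diet 4 of 16 WD and 6 of 16 CD libraries. All 4 libraries over 3000 counts were from females, 1 of them KO and 3 WT, and 1 on the WD and 3 on the CD. These counts chose the genes and carry no test.

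On the scale of log2(CPM + 0.5), the member sum averaged 0.99 ± 1.82 in KOF-WD, 5.02 ± 4.84 in KOF-CD, 2.01 ± 4.36 in WTF-WD and 8.26 ± 3.43 in WTF-CD (SD, n = 4 each). Male groups averaged 0.97 ± 0.65 in KOM-WD, -0.21 ± 0.44 in KOM-CD, 2.99 ± 2.09 in WTM-WD and 0.86 ± 1.20 in WTM-CD. The 8 group means had an SD of 2.79, against a pooled SD of 2.83 between livers within a group. The pooled spread between livers by itself gives means of 4 livers an SD of about 1.41. Group SDs ran from 0.44 in KOM-CD to 4.84 in KOF-CD, so the pooled value describes no single group. The member sums are the values that chose the genes, so these SDs are a description and no test was made. Without the 4 libraries over 3000 counts, a choice made after seeing the data, the SD of the group means and the pooled SD between livers were 1.92 and 1.57, and without any of the 10 holding libraries, which leaves 7 groups, 0.67 and 0.89. The only group in which all 4 livers held the members was WTF-CD, and its lowest sum of 497 counts lay above the sums of 25 of the other 28 libraries.

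**Figure D2:**
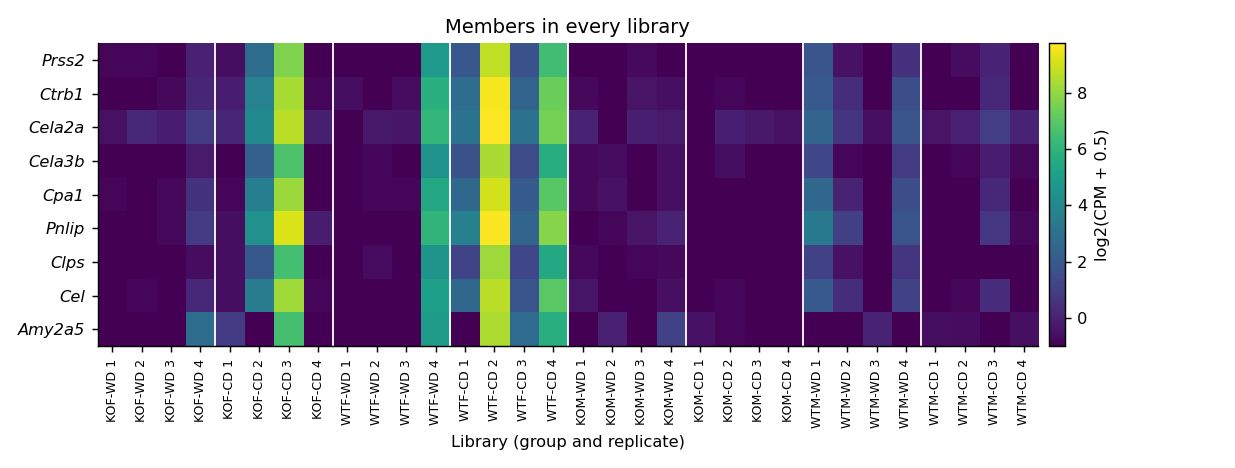
Each of the 9 members (rows) in each of the 32 libraries (columns, by group and replicate), as log2(CPM + 0.5). The 4 libraries over 3000 counts are high for all 9 members, and 4 of the other 6 holding libraries have a gap in the Amy2a5 row.

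Prss2 (anionic trypsinogen, ENSMUSG00000057163.3, chromosome 6, 41521787 to 41525079) had 3043 counts in KOF-CD 3, 399 in WTF-WD 4, 4731 in WTF-CD 2 and 1249.5 in WTF-CD 4. In the 6 other holding libraries it had 7 to 77.5 counts, and in the 22 remaining libraries 0 to 6.68, with 15 of the 22 at 0. The 10 holding libraries did not overlap the rest for this trypsinogen, though the gap between 7 and 6.68 counts was narrow. A count of 0 allows up to 3 counts in that library, for counting error only.

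Ctrb1 (chymotrypsinogen B, chromosome 8) had 4909 counts in KOF-CD 3, 819 in WTF-WD 4, 8633 in WTF-CD 2 and 2354 in WTF-CD 4, and 0 to 11 counts in the 22 libraries below the rule. Its lowest value among the 10 holding libraries was 9, so the ranges met. Cpa1 (carboxypeptidase A1, chromosome 6) had 4202, 643, 5805 and 1810 counts in these 4 libraries, 14 to 137 in the 6 other holding libraries and 0 to 8 in the rest. Cela3b (a chymotrypsin-like elastase, chromosome 4) was lower throughout, with 1624, 326, 3724 and 735 counts in the 4 libraries and 0 to 5 in the rest. Each of these zymogens had its highest count in WTF-CD 2 and its second highest in KOF-CD 3.

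Cela2a (elastase 2A, ENSMUSG00000058579.5, chromosome 4, 141814962 to 141826160) was the member with the most counts in WTF-CD 2 and the one most often seen at a low level elsewhere. Its counts were 3, 10, 5 and 20 in KOF-WD, 8, 206, 5957 and 6 in KOF-CD, 0, 5, 4 and 1020 in WTF-WD and 101.2, 9542, 99.0 and 2599 in WTF-CD (replicates 1 to 4). In males they were 6, 0, 6 and 4 in KOM-WD, 0, 6, 4 and 2 in KOM-CD, 52.0, 14, 2 and 32 in WTM-WD and 3, 7, 18 and 6 in WTM-CD. Only 3 of the 22 libraries below the rule had 0 counts, against 11 to 16 of 22 for each of the other 8 members, and the median of these libraries was 5 counts.

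Per length, in TPM (transcripts scaled to a fixed library total after division by length), Cela2a and Ctrb1 led. Cela2a reached 770 TPM in KOF-CD 3, 188 in WTF-WD 4, 2463 in WTF-CD 2 and 361 in WTF-CD 4, and Ctrb1 901, 146, 1811 and 404 TPM. In each of the 10 holding libraries 1 of these 2 proteases had the highest TPM of all members. Amy2a5 had the lowest TPM in 8 of the 10. The division of amylase reads between Amy2a5 and Amy2a4, described below, is uncertain, so this rank is no measure of amylase as a whole.

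The fat-digesting proteins followed the same libraries. Pnlip (pancreatic triglyceride lipase, chromosome 19, 58652498 to 58681788) had 8538 counts in KOF-CD 3, 948 in WTF-WD 4, 9050 in WTF-CD 2 and 3223 in WTF-CD 4, and 0 to 21 counts in the 22 libraries below the rule. Clps (colipase, chromosome 17) had 1375, 345, 3232 and 646 counts in these libraries and 0 to 3 in the 22. Cel (carboxyl ester lipase, chromosome 2) had 4477, 485, 4467 and 1823 counts, and 0 to 11 in the 22. Cel was the only member with its highest count in KOF-CD 3 rather than in WTF-CD 2, by 4477 to 4467 counts. Scaled to library totals it was lower in KOF-CD 3, at 297 CPM, than in WTF-CD 2, at 403 CPM.

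The members kept similar proportions, some more closely than others. Taken as shares of the summed counts of 8 members (all but Amy2a5), Cpa1 was 11.8% to 12.9% in the 4 libraries over 3000 counts, Prss2 8.01% to 9.62%, Cela2a 17.5% to 20.5%, Pnlip 18.4% to 25.0%, Cela3b 4.76% to 7.57% and Clps 4.03% to 6.92%, while the sum itself varied between 4984 and 49183 counts. The ratio of the highest to the lowest share over these 4 libraries ran from 1.09 for Cpa1 to 1.72 for Clps. In the 6 other holding libraries the exact (Clopper-Pearson) 95% interval of each share met the range of those 4 libraries in all cases but 1, for Ctrb1. Such intervals cover counting error only.

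The share of Clps varied most, and its ratio to Pnlip was taken up after these values had been seen. The ratio of Pnlip to Clps counts was 6.27 in KOF-CD 2 (exact 95% interval 4.49 to 8.94) and 6.21 in KOF-CD 3 (5.86 to 6.58), and 2.75 in WTF-WD 4 (2.43 to 3.12). In WTF-CD livers it was 7.0 (4.46 to 11.5), 2.80 (2.69 to 2.92), 2.62 (1.64 to 4.28) and 4.99 (4.58 to 5.44) for replicates 1 to 4, and so differed within this group beyond counting error. WTM-WD 1 had 5.82 (3.46 to 10.4) and WTM-WD 4 2.82 (1.38 to 6.21), and in KOF-WD 4, with 2 Clps counts, the interval was too wide to place. The ratio of Cel to Cela3b counts was 2.76 in KOF-CD 3, 1.49 in WTF-WD 4, and 2.09, 1.20, 1.26 and 2.48 in WTF-CD 1 to 4, and of the 4 fullest libraries WTF-CD 2 and WTF-WD 4 had the lower values of both ratios. The ratios share libraries and depth and are not independent of each other.

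**Figure D3:**
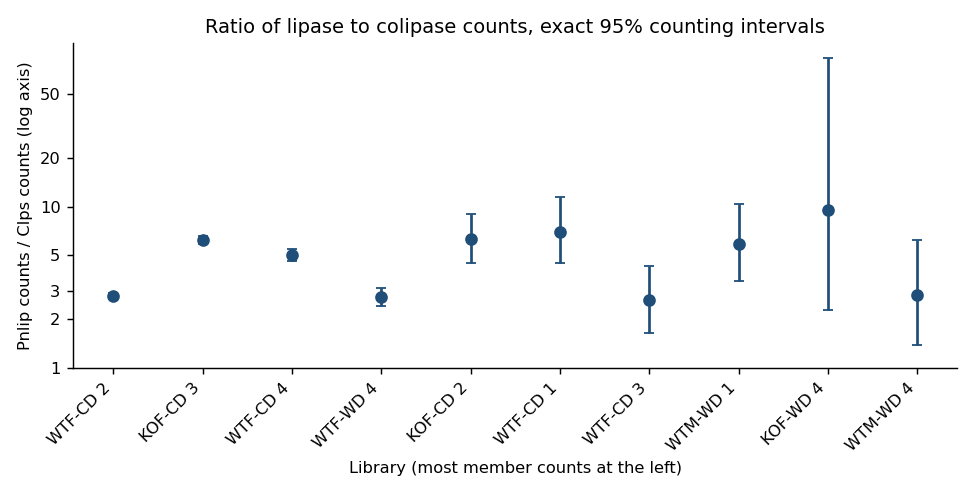
Ratio of Pnlip to Clps counts on a log axis in the 10 holding libraries, ordered by member sum, with exact 95% intervals for counting error. WTF-CD 2, WTF-WD 4, WTF-CD 3 and WTM-WD 4 lie between 2.62 and 2.82, and the other 6 libraries lie at 4.99 or higher.

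A retained-intron transcript of Cela2a (ENSMUST00000127962.1, chromosome 4) took an uneven share. It took 1.42% of Cela2a counts in KOF-CD 3, 22.9% in WTF-WD 4, 30.4% in WTF-CD 2 and 6.47% in WTF-CD 4. In counts these were 84.6, 234, 2902 and 168. The share was larger in WTF-CD 2 and WTF-WD 4, which also had the lower Pnlip to Clps ratios of the 4. Of the 6 other libraries, WTF-CD 3 had 13.7% with a ratio of 2.62 and KOF-CD 2 7.24% with 6.27. WTF-CD 1 and WTM-WD 1 had 0%, with ratios of 7.0 and 5.82. Against this pattern, KOF-WD 4 had 33.7% (of 20 counts) with a ratio of 9.5, and WTM-WD 4 0% (of 32) with 2.82.

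Amy2a5 (pancreatic alpha-amylase, ENSMUSG00000074268.4, chromosome 3, 113247178 to 113258837) did not follow the other 8 members. It had 1436 counts in KOF-CD 3, 439 in WTF-WD 4, 3805 in WTF-CD 2 and 775 in WTF-CD 4, but 0 counts in KOF-CD 2, WTF-CD 1, WTM-WD 1 and WTM-WD 4, which hold the other 8. In KOF-WD 4 it had 94.0 counts, more than all other members of that library together, which had 86.0. In the 4 fullest libraries the neighbouring Amy2a4 had more, at 45901 counts in KOF-CD 3, 5239 in WTF-WD 4, 48757 in WTF-CD 2 and 16735 in WTF-CD 4. Where Amy2a5 was at 0, Amy2a4 had 1401 counts in KOF-CD 2, 768 in WTF-CD 1, 582 in WTM-WD 1 and 196 in WTM-WD 4, and it was at 0 in KOF-WD 4. The coding sequences of both, 1527 bases each in GENCODE release 21, are identical (0 differences), and 57.1% of the 50-base windows of the Amy2a5 transcript occur in that of Amy2a4, so the division of reads between them is uncertain. Amy2a2 and Amy2a3 have transcripts identical to that of Amy2a4, and the files list Amy2a4 only.

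Summed, the 2 amylase genes came back to the pattern of the other members. The amylase genes Amy2b and Amy2a1, with at most 578 and 1991 counts in a library, were not added to this sum. Amy2a5 and Amy2a4 together gave 1.07 to 1.68 counts for each count of the other 8 members over the 10 holding libraries, while Amy2a5 alone gave 0 to 1.09. Outside the holding libraries, WTM-WD 2 had 124 and WTM-CD 3 109 counts of Amy2a4, with none of Amy2a5. With amylase taken as this sum, an alternative chosen after seeing the data, 11 libraries held the members in place of 10.

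**Figure D4:**
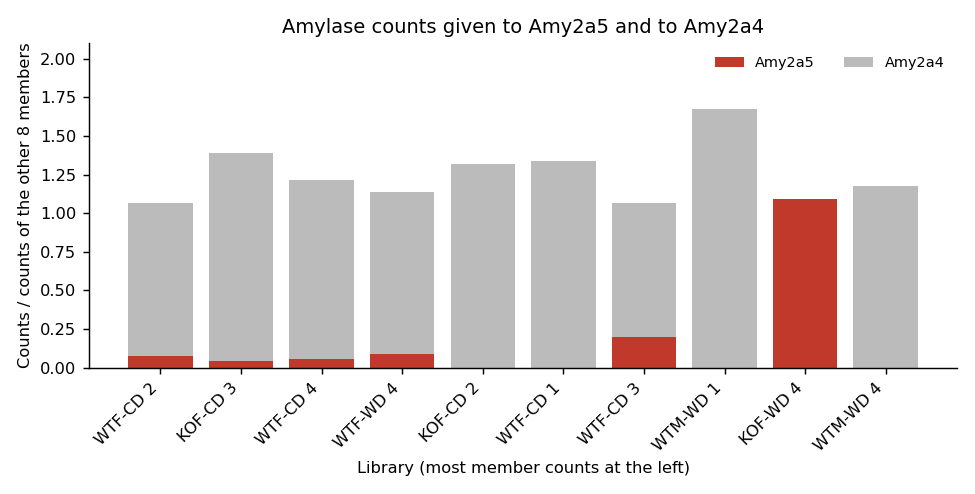
Counts of Amy2a5 (red) and Amy2a4 (grey) for each count of the other 8 members, stacked, in the 10 holding libraries. The full bars span 1.07 to 1.68, while the Amy2a5 part is absent in 4 libraries and makes up the whole bar in KOF-WD 4.

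Other members share less sequence with relatives. Of the 50-base windows of Prss2, 1.83% to 6.92% occur in Prss1, Try5, Try4 or Try10 and 0 in Prss3, and 33.2% of those of Cela3b occur in Cela3a. None of the windows of Cela2a, Cpa1, Ctrb1 or Pnlip occurs in the relatives compared with them. Near-identical copies can therefore move counts for Amy2a5 and in part for Cela3b.

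Of a list of 34 further acinar genes, 32 were in the files, and over the 4 libraries with more than 3000 counts 18 of the 22 best covered varied 1.19-fold to 1.78-fold in their ratio to the members. Per 1000 member counts, Cela1 (elastase 1) had 146 in KOF-CD 3, 174 in WTF-WD 4, 166 in WTF-CD 2 and 145 in WTF-CD 4. Cpb1 (carboxypeptidase B1) had 129, 111, 93.7 and 119.6, and Pnliprp1 (a pancreatic lipase-related protein) 68.9, 59.4, 53.7 and 55.8. Ctrl (chymotrypsin-like), Try4 and Try5 (trypsinogens), Rnase1 (pancreatic ribonuclease), Reg1 (a secreted lectin of the acinar cell) and Dmbt1 varied 1.25-fold to 1.76-fold. These genes were not used to choose the members, but they belong to the same cell type.

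Gp2, Rbpjl, Tff2 and Spink1 varied more. Gp2 (the major membrane glycoprotein of zymogen granules) had 441 counts in KOF-CD 3, 563 in WTF-CD 2 and 197 in WTF-CD 4, but 2.52 in WTF-WD 4, which per 1000 member counts is 0.465 there and 10.6 to 13.0 in the other 3. Rbpjl (the acinar subunit of PTF1) had 1.24 per 1000 in KOF-CD 3, 3.50 in WTF-WD 4, 5.81 in WTF-CD 2 and 1.12 in WTF-CD 4, from 17 to 308 counts. Zg16, a zymogen granule lectin, had 29.9, 47.1, 44.3 and 32.5, and Sycn, a granule membrane protein, 11.8, 19.0, 20.9 and 14.6. The last 3 genes were higher per member count in WTF-CD 2 and WTF-WD 4 than in KOF-CD 3 and WTF-CD 4.

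Ranked by likeness to the member sum, the nearest genes were acinar as well. Over the 13992 genes that reached 10 counts in 2 or more libraries, the Pearson correlation with the member sum across 32 libraries, on the log2(CPM + 0.5) scale, was highest for Cpb1 at 0.98, with 2210010C04Rik second at 0.98 and Pnliprp1 next at 0.97. Among those that followed were Try4, Amy2a4, Rnase1, Zg16, Dmbt1, Try5, Ctrl, Reg1 and Pnliprp2, and Sycn ended the first 15 at 0.93. Of these 15 genes 14 were on the acinar list, the exception being 2210010C04Rik, which was compared with Prss2 as a relative. That gene had 554 to 6401 counts in the 4 fullest libraries and 0 to 11 in the 22 that did not hold the members. Among the first 30 the acinar list held 27, and Pdia2, a pancreas-rich protein disulfide isomerase, was at rank 17. All 32 points share their libraries with the member sum and most lie near 0, so these values are descriptions.

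To ask whether group explains these transcripts, the other acinar genes were tested across all 32 libraries in 1 edgeR quasi-likelihood model of the 8 groups, with adjusted p-values over all 13539 genes tested. Of the 34 other acinar genes 24 passed the filter of 10 counts in 4 libraries. The filter favoured genes that are high in the libraries that hold acinar transcripts, so the count for the 8 groups is no support for a group effect: 23 of 24 were called, against 33.3% of all genes. Ctrc, which passed only through the 4 fullest libraries, was not called (adjusted p = 0.162). Zg16 had the smallest adjusted p (0.000355), then Ctrl (0.000424), Tff2 (0.000652), Dmbt1 (0.000657) and Amy2a4 (0.000725). Leaving out WTF-CD 2 gave 16 called of 18, WTF-CD 4 gave 17 of 18, and KOF-CD 3 or WTF-WD 4 gave 18 of 18. Over all genes, 4741 of 13509 were called without WTF-CD 2 and 4728 of 13514 without WTF-CD 4. The counts were 4503 of 13442 without KOF-CD 3 and 4709 of 13518 without WTF-WD 4. Without all 4, 9 genes passed the filter and 9 were called, against 36.8% of all genes. The limit set by the filter holds for these counts too.

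For tests of sex, genotype and diet, many of the 24 could not be called. In 15 of them at least 1 group was at 0 counts in all 4 livers, and the edgeR log2 difference had an SE over 100 for 3 genes by sex, 11 by diet, 9 by genotype and 8 for the difference of diet effects. Of the 24, 19 reached 10 counts in none of the 22 libraries that did not hold the members. Low counts of calls below are therefore no sign of like levels. Most of the 24 rise in the same few libraries as the member sum. A count of calls, in edgeR or DESeq2, is therefore not a count of separate results. Averaged over genotype and diet, 2 of 24 were higher and 0 lower in females than in males, against 15.9% of all genes higher and 15.6% lower (31.6% in either direction). These were Klk1 (tissue kallikrein), with a log2 difference of 3.89 (SE 1.26, adjusted p = 0.0211), and Ctrl, with 4.18 (SE 1.51, adjusted p = 0.0366). Ctrl had 1993 counts in KOF-CD 3, 283 in WTF-WD 4, 3389 in WTF-CD 2 and 749.9 in WTF-CD 4, 8 to 59 in the 6 other holding libraries and 0 to 8 in the rest, and Klk1 had 54 to 577 counts in the 4, 2.21 to 11 in the 6 and 0 to 4 in the rest. Both genes were therefore low in female and male livers alike outside the holding libraries. Both passed the filter only through holding libraries, of which 8 were female and 2 male. These 2 calls can therefore not be separated from which livers hold acinar transcripts. For WD against CD 0 were higher and 2 lower, against 8.63% and 10.8% of all genes (19.4% in either direction). For KO against WT 0 of 24 were called (1 at an unadjusted p under 0.05, Amy2a4), with 0.0886% of all genes called (0.0591% higher, 0.0295% lower). For the diet effect in females minus that in males 0 were called (2 unadjusted, Amy2a4 and Cela1), with 0.244% of all genes called (0.0591% higher, 0.185% lower).

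These counts depended on the tool and on single libraries. DESeq2 on the same sums called 17 of 24 genes higher in females than in males, against 15.8% of all genes. It called 3 higher and 3 lower on the WD than on the CD (10% and 11.3% of all genes), 6 lower in KO than in WT (0.192%) and 12 lower in the diet effect of females minus males (1.07%). The limit of the filter applies here too: 19 of the 24 reached 10 counts in no library outside the holding ones. Some log2 differences were extreme, such as 16.4 for Pnliprp2 by sex and -25.7 for Pnliprp1 in the difference of diet effects. The DESeq2 counts can therefore not be separated from which livers hold acinar transcripts. The edgeR count for sex was 0 without KOF-WD 4 or WTF-WD 4, 1 without KOF-WD 1 or KOF-WD 3 and 1, in the opposite direction, without the 4 libraries over 3000 counts. It was 4 without WTF-CD 1, WTF-CD 2 or WTF-WD 3, and 5 without WTF-CD 3, KOF-CD 1 or KOF-CD 4. Klk1 lost its call without KOF-WD 4 (log2 difference 3.79, adjusted p = 0.0717) or WTF-WD 4 (3.14, adjusted p = 0.118). Without the 4 libraries over 3000 counts Klk1 did not pass the filter. Ctrl lost it without KOF-WD 1 (0.0721), KOF-WD 3 (0.0599), KOF-WD 4 (0.114), WTF-WD 4 (0.413) or the 4 libraries (0.579), edgeR with Benjamini-Hochberg adjustment throughout.

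Cela1 was counted in every liver, and its sex difference changed direction with the 4 libraries. In females it had 7.37, 5.76, 6.21 and 9.77 CPM in KOF-WD, 10.4, 21.6, 344 and 6.21 CPM in KOF-CD, 5.51, 5.78, 4.01 and 64.1 CPM in WTF-WD and 15.4, 796, 14.7 and 153 CPM in WTF-CD. In males it had 13.5, 10.3, 15.4 and 8.60 CPM in KOM-WD, 10.8, 11.7, 10.7 and 27.6 CPM in KOM-CD, 22.4, 9.59, 13.3 and 13.2 CPM in WTM-WD and 11.8, 16.9, 19.6 and 19.1 CPM in WTM-CD. No library was at 0, and the 4 libraries over 3000 member counts were the 4 highest. The edgeR sex difference was 1.43 on the log2 scale over all 32 libraries (SE 0.57, adjusted p = 0.0575, higher in females), and DESeq2 called it at 1.41 (SE 0.50, adjusted p = 0.0179). Without the 4 libraries, all from females and set apart after their values were seen, the edgeR difference was -0.76 (SE 0.20, adjusted p = 0.00548). Females were then lower than males, but leaving out the 4 highest values, all female, moves the difference this way by construction.

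**Figure D5:**
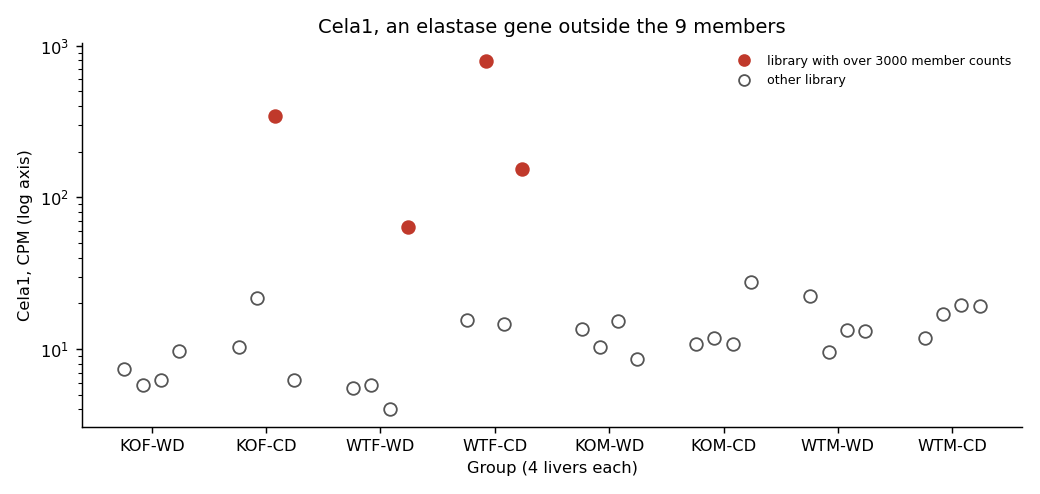
Cela1 in CPM on a log axis in all 32 libraries, by group. The 4 filled points are the libraries with over 3000 member counts, at 64.1 to 796 CPM, and the 28 open points lie at 4.01 to 27.6 CPM.

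On the WD, Cela1 was lower than on the CD, with a log2 difference of -1.998 (SE 0.57, adjusted p = 0.0163). The edgeR call was lost without WTF-CD 2 (adjusted p = 0.0501) or KOF-CD 3 (0.0623), but without all 4 libraries the difference was -0.78 (SE 0.20, adjusted p = 0.00807), in the same direction and smaller. Bhlha15 (Mist1, a transcription factor of secretory cells) was lower on the WD, with a log2 difference of -1.25 (SE 0.42, adjusted p = 0.0355). Its counts were 0 to 13 in the libraries that did not hold the members, it reached 36 in WTF-CD 2, and its call was lost without any 1 of 10 libraries, most of all KOF-CD 3 (adjusted p = 0.254). For the diet the count of calls was 0 without WTF-CD 2 or KOF-CD 3, 1 without the 4 libraries, and 1 without WTM-CD 3, KOM-WD 2, WTM-WD 3, KOF-WD 1 to 3, WTF-WD 1 or WTF-WD 2.

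Islet markers did not follow the members in a fixed ratio. The 14 islet genes summed to 85.6 CPM in WTF-CD 2 and to at most 1.84 CPM in any other library, which was WTF-WD 4. Ins2 (insulin) had 469 counts, Ins1 206, Gcg (glucagon) 97, Iapp 76 and Chga 43 in WTF-CD 2. In KOF-CD 3, with 35562 member counts, the islet list summed to 1.39 CPM (14 of its 21 counts from Nkx6-1). Ins2 had 0 counts there and Ins1 had 1. Outside WTF-CD 2 no library had more than 9 counts of Ins2, 4 of Ins1, 1 of Gcg or 2 of Iapp.

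The duct list (Krt19, Krt7, Sox9, Spp1 and others) gave 59.0 to 73.7 CPM in the 4 fullest libraries and 49.4 to 146.9 CPM in the 22 libraries that did not hold the members, and the ranges overlap. For mesothelium the ranges were 3.95 to 9.28 and 1.09 to 9.10 CPM, and for stomach 0.204 to 0.813 and 0.219 to 2.47 CPM, with Gkn1, Gkn2 and Cblif at 0 in all libraries. Intestinal genes other than Fabp2, which the liver expresses, stood highest in KOF-CD 3 at 2.92 CPM, where Sis (sucrase-isomaltase) had 12 and Alpi (intestinal alkaline phosphatase) 10 counts. Lymphoid genes peaked in the holding library WTF-CD 1, where the B cell genes Cd79a, Ms4a1 and Cr2 had 57, 51.4 and 35.0 counts, against at most 20, 21.1 and 7 in the 22 libraries. Of the 6 adipocyte genes, 4 peaked in the holding library KOF-WD 4, with 40 counts of Adipoq, 80.3 of Plin1, 35.2 of Retn and 622 of Fabp4 (at most 7, 12, 3 and 245 in the 22), and Lep peaked in WTM-WD 4, with 14. The adipocyte sum was 63.6 CPM in KOF-WD 4, 68.5 CPM in WTM-WD 4 and at most 36.3 CPM in the 4 fullest, and its highest value, 110 CPM in KOM-WD 4, was nearly all Cfd (1141 counts). The part of these other cell types in the member counts was not tested.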

How the data were processed

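Liver RNA from 32 mice was sequenced as 50-base read pairs. The authors quantified transcripts with Salmon 1.3.0 (GRCm38), and the deposited tables give estimated counts and TPM for 117135 transcripts. Estimated counts are not whole numbers. Here 115973 transcripts were assigned to 35523 genes through GENCODE release 21, and the rest, 0.315% to 0.424% of counts, was left out. Effective lengths entered 1 alternative. Estimated counts were summed per gene, and rounded for tests. CPM used library totals (10140048 to 15825078). Members and gene lists were chosen with earlier results of these data known. Named genes were the members, the 12 other acinar genes with the highest counts, up to 5 per test with the smallest p, the 15 nearest the member sum and up to 3 per other list, and values are given for those the comparisons turn on. Genes named beyond this rule, and the Pnlip to Clps ratio, were chosen after values were seen. Some listed genes are not reported here.

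Genes reaching 10 counts in 4 or more libraries entered edgeR 4.0.16 (R 4.3.3): TMM factors, robust quasi-likelihood F tests and Benjamini-Hochberg adjustment at 0.05 in 1 model of 8 groups. The code was tested on simulated data. Alternatives were RLE factors, DESeq2 1.42.0 (also with length offsets), 3 other filters, a replicate block and leaving out libraries. The study's own DESeq2 was 1.28.1. Labels give separate mice but no batch or date, so sequencing or extraction batches could not be examined. Replicate numbers do not pair mice. No libraries were duplicates: the smallest chi-square per gene within a group was 11.1. Tools were Python 3.11.15, NumPy 2.4.6, pandas 2.3.3, SciPy 1.17.1 and matplotlib 3.10.9.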

Additional observations from a re-analysis of the deposited data

Results flagged for a closer look

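In 39 of 112 checks of 4 livers, the highest liver stood so far from the other 3 that its gap to the nearest exceeded Dixon's 95% critical value for the group's range, or the lowest did. Chance gives about 1 in 20 for normally distributed values not chosen beforehand. These checks used unlogged CPM, where that rate may not hold. The members were chosen for being high in some of these libraries and are not independent, so for them and the other acinar genes this is a description and no test. The member sum stood apart at 12.5 CPM in KOF-WD 4, 2357 CPM in KOF-CD 3, 369 CPM in WTF-WD 4, 3.32 CPM in KOM-WD 4 and 5.6 CPM in WTM-CD 3. In KOF-CD 3 the members that stood apart were 202 CPM for Prss2, 395 CPM for Cela2a, 108 CPM for Cela3b, 279 CPM for Cpa1, 325 CPM for Ctrb1, 566 CPM for Pnlip, 95.2 CPM for Amy2a5, 91.2 CPM for Clps and 297 CPM for Cel. In WTF-WD 4 they were 27.2 CPM for Prss2, 69.5 CPM for Cela2a, 22.2 CPM for Cela3b, 43.8 CPM for Cpa1, 55.7 CPM for Ctrb1, 64.6 CPM for Pnlip, 29.9 CPM for Amy2a5, 23.5 CPM for Clps and 33 CPM for Cel. In KOF-WD 4 they were 0.97 CPM for Cpa1, 1.32 CPM for Pnlip, 6.51 CPM for Amy2a5 and 0.693 CPM for Cel, and in WTM-CD 3 1.12 CPM for Pnlip and 0.803 CPM for Cel. WTF-CD 2 stood apart from its group only for 3 members, with 336 CPM for Cela3b, 344 CPM for Amy2a5 and 292 CPM for Clps, and WTF-CD 4 was also high.

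Among the lists, the other acinar genes stood apart at 4867 CPM in KOF-CD 3, 629 CPM in WTF-WD 4 and 29.5 CPM in KOM-CD 4, where 27.6 CPM came from Cela1. The islet list did so at 85.6 CPM in WTF-CD 2 and 1.39 CPM in KOF-CD 3, and the adipocyte list at 63.6 CPM in KOF-WD 4 and 8.79 CPM in KOM-CD 3.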

How the results depend on the processing

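The number of holding libraries was 8 to 12 under 5 other rules (3 or 30 counts, 3 or 7 members, TPM of at least 1), and the SD of the group means of the member sum was 2.43 to 3.09 when each library was left out. Leave-one-out group means (log2) were 0.09 to 1.42 for KOF-WD, 2.95 to 6.50 for KOF-CD, -0.16 to 2.89 for WTF-WD, 6.94 to 9.27 for WTF-CD, 0.64 to 1.12 for KOM-WD, -0.43 to -0.11 for KOM-CD, 2.28 to 3.89 for WTM-WD and 0.28 to 1.19 for WTM-CD. With a pseudocount of 5, low groups moved up by construction, to 2.89 for KOF-WD, 2.71 for KOM-WD, 2.43 for KOM-CD and 2.74 for WTM-CD, and with near-identical relatives added KOM-WD moved to 1.62.

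Leaving out each library gave 16 to 23 calls among the other acinar genes for the 8 groups, 0 to 5 for sex, 0 to 3 for diet, 0 to 0 for genotype and 0 to 1 for the diet effect in females minus males. Without the 4 libraries over 3000 member counts, an alternative added after seeing the data, the calls were 9, 1, 1, 0 and 1. The shares of all genes called were then 36.8%, 31.6%, 17.8%, 0.0823% and 0.808% in the same order. The Cela1 sex difference reversed to -0.76, but these 4 libraries are all from females and hold its 4 highest values. Fewer of the other acinar genes pass the filter without these libraries. Requiring 10 counts in 16 libraries leaves 1 such gene and gave 1 call for the 8 groups, 0 for sex and 1 for diet. No filter gave 1 call for sex and 1 for diet. DESeq2 gave 17, 6, 6 and 12 calls for sex, diet, genotype and the difference of diet effects, against 32.6%, 21.3%, 0.37% and 1.51% of all genes, and with length offsets 16, 6, 6 and 11, against 28.7%, 16.2%, 0.421% and 1.37%. The limit of the filter applies to the DESeq2 counts as well, and the cause of the difference between tools was not tested. The replicate block gave 19 calls for the 8 groups, 2 for sex, 2 for diet, 0 for genotype and 0 for the difference, and changed no call by over 1.5 times. Replicate numbers did not pair the livers (mean correlation of deviations 0.00653 within a number and -0.00185 between numbers). RLE factors and filterByExpr changed no call by over 1.5 times. The tests could not be fitted as designed without all 10 holding libraries, since no WTF-CD liver would remain. With 0 to 21 counts of each member in the 22 libraries that did not hold them, small differences among these were not detectable at this depth.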

Other observations

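Genes of skeletal muscle, chosen after their values were seen, were also found in some of these livers. Acta1 (skeletal muscle actin) had 5771 counts in KOF-CD 3, 1114 in KOF-CD 2, 381 in KOF-CD 1, 691 in WTF-CD 1, 133 in WTF-CD 4, 206 in WTM-WD 4 and 149.6 in WTM-CD 3, and Myh1 and Tnnt3 had 4715 and 3069 counts in KOF-CD 3. Muscle and acinar transcripts did not keep a fixed ratio: in WTF-CD 2, with 52988 member counts, Acta1 had 69.3 counts, in WTF-WD 4, with 5423, it had 7.01, and in KOF-CD 1, with 39.9 member counts, it had 381. In the 22 libraries that did not hold the members the median Acta1 count was 1.0. The part of muscle in the acinar counts was not tested.

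The other acinar genes, without Cela1, gave 1.22 to 2.30 counts per member count in 9 of the 10 holding libraries, and 0.486 in KOF-WD 4, where Amy2a4 was at 0 and amylase reads stood under Amy2a5.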
